A study of Mus musculus with 6 samples.

Results

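The transcripts described here encode the proteins that break down haem and that store and move the iron it releases: Hmox1, Hmox2, Blvra, Blvrb, Fth1, Ftl1, Slc40a1, Tfrc, Slc48a1 and Trf. They were chosen by gene symbol and make up 10 of the 24459 genes in the deposited gene table, with 43 of the 75457 rows of the isoform table. The RNA came from brain tissue next to the clot on day 5 after an intracerebral haemorrhage, a bleed into the brain, in mice labelled WT. The mice received TEPP-46, which activates the M2 form of pyruvate kinase, in 3 libraries (T1, T2 and T3) and vehicle in 3 libraries (C1, C2 and C4). Both groups carried the haemorrhage, so no library shows the uninjured brain, and nothing in the labels ties a library to its own animal. p-values therefore measure the spread between these libraries, which may be technical.

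When red cells break up in a clot, haem is taken up by phagocytes, and haem oxygenase opens its ring to give biliverdin, carbon monoxide and free iron. Biliverdin reductase turns biliverdin into bilirubin. The iron is held in ferritin, a shell of heavy and light chains, or leaves the cell through ferroportin and travels on transferrin to cells that carry the transferrin receptor. After a brain haemorrhage these steps are best known from microglia and macrophages, while oligodendrocytes are the main source of transferrin messenger RNA in the brain.

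Much of this system is set after transcription. When iron is scarce, iron regulatory proteins bind a hairpin in the messenger RNA, the iron-responsive element. Bound at the 5′ end, as in the ferritins and ferroportin, they hold back translation. Bound at the 3′ end of the receptor messenger RNA, they protect it from decay. A level of messenger RNA in these libraries is therefore not a level of protein.

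A search of the members' annotated transcripts (GENCODE M21, build GRCm38) found the element in 4 of the 10 genes. The search asked for a C, 5 bases, the loop CAGTGN and 5 bases that pair with the first 5, G-T pairs allowed, on the transcript strand. Elements that depart from this pattern would be missed, so a gene or stretch without a match may still hold one. The sequences are shown because they mark which members hold a match and at which end. Each is a window of 30 bases as DNA letters, 5′ to 3′, with the bulged C and the 6 bases of the loop in capitals. Fth1 (chr19:9982732-9982761, plus strand), Ftl1 (chr7:45459778-45459807, minus strand) and Slc40a1 (chr1:45925464-45925493, minus strand) held 1 each in the 5′ UTR. Tfrc held 4 in the 3′ UTR, between chr16:32631219 and chr16:32631739 on the plus strand.
Fth1: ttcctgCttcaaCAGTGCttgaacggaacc
Ftl1: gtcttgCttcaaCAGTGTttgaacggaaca
Slc40a1: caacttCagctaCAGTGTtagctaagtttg
Tfrc, element 1: aattatCggaagCAGTGCcttccataatta
Tfrc, element 2: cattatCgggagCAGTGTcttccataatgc
Tfrc, element 3: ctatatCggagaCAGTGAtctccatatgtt
Tfrc, element 4: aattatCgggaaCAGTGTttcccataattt

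The 2 ferritin windows share the stem bases on both sides of the loop, while those of Slc40a1 and Tfrc differ from them. Among all annotated coding genes, 0.151% of those with a 5′ UTR and 0.615% of those with a 3′ UTR held a match in that region. No match lay in the transcripts of Hmox1, Hmox2, Blvra, Blvrb, Slc48a1 or Trf.

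Libraries held between 5286426 and 6025064 gene counts. Levels are given as CPM, a gene's counts scaled to the gene total of its library. All 10 neuron and all 10 astrocyte markers listed for the tissue passed the filter on low counts. This goes with brain tissue but cannot tell tissue next to the clot from other brain tissue. The libraries differed in their levels of markers of other cells within both groups. The summed level of 18 markers of activated microglia and macrophages lay between 11403 and 21139 CPM in TEPP-46 libraries. In vehicle libraries it lay between 9647 and 28492 CPM, with C2 highest. Apoe alone gave the larger part of this sum in each library, so the sum is mainly a level of Apoe. Apoe ranged from 7846 to 16421 CPM over the 6 libraries, while Spp1, of the same list, ranged from 108 to 3734 CPM. The summed level of 14 oligodendrocyte markers lay between 13676 and 15891 CPM in TEPP-46 libraries. In vehicle libraries it lay between 5661 and 14141 CPM, with C4 lowest. No marker of these lists was at 0 in all libraries. In bulk tissue, fewer cells of a type and less RNA per cell cannot be told apart.

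The comparison asks which of these transcripts differ when pyruvate kinase M2 is activated after a bleed. All 10 genes passed the filter on low counts, and none was called in TEPP-46 against vehicle by edgeR's quasi-likelihood test at an adjusted p under 0.05, where 0% of all 14441 tested genes were called. At an unadjusted p under 0.05 the count was 0 of 10 members, against 5.93% of all tested genes, and DESeq2 also called 0 of 10, against 0.588% of the genes it adjusted. For 0 of 10 members did the TEPP-46 libraries lie apart from the vehicle libraries, against 11.4% of tested genes. The log2 fold change was above 0 for 6 members and below 0 for 4, with a median of 0.021, against 0.0068 over all tested genes. In the authors' deposited table none of the 10 is listed as changed, and the smallest p in it, 0.170, belongs to Blvra.

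**Figure D1:**
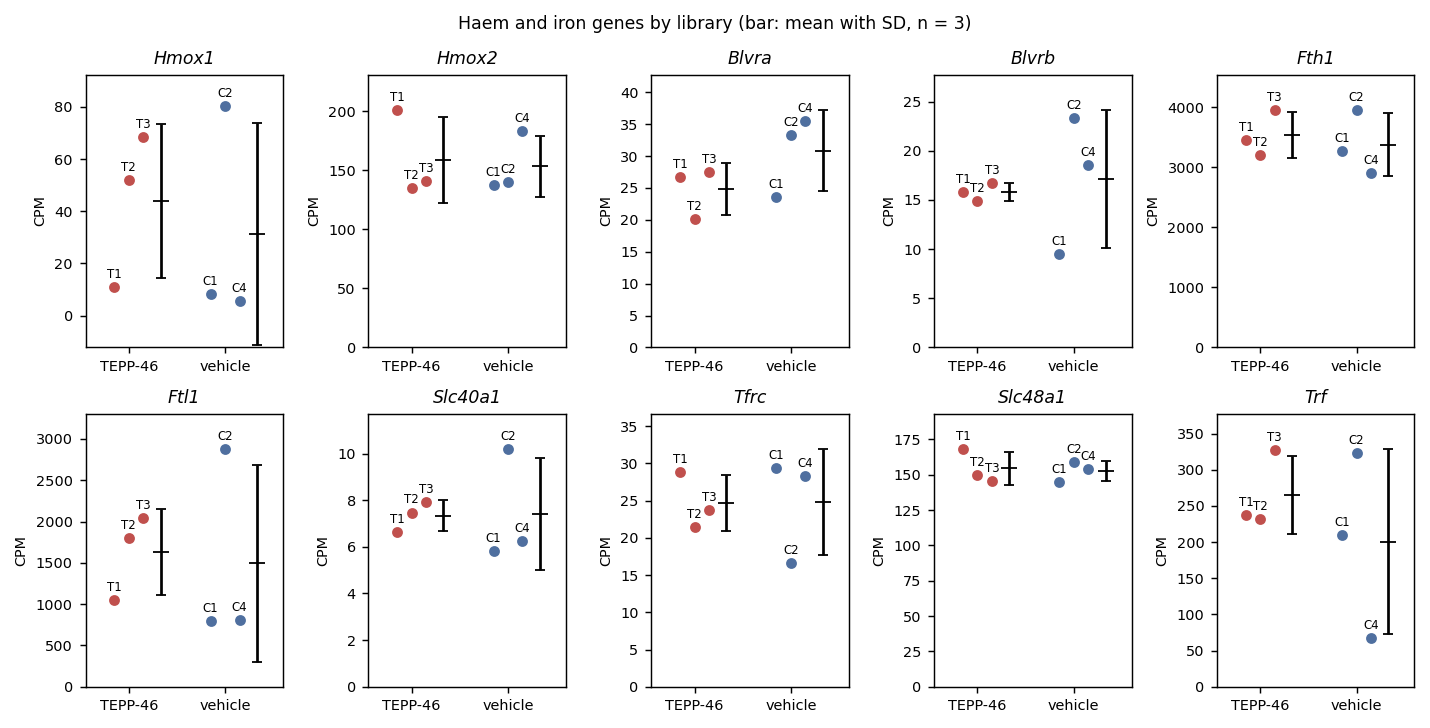
CPM of each member in the 3 TEPP-46 libraries (left, red) and the 3 vehicle libraries (right, blue), each point labelled with its library. Horizontal marks and bars give the mean and SD of each group (n = 3). The groups overlap for all 10 genes, and vehicle library C2 is the highest library for Hmox1, Blvrb, Ftl1 and Slc40a1 and the lowest for Tfrc.

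Hmox1 (chromosome 8, 75093621 to 75100589, GRCm38) encodes haem oxygenase 1, the inducible enzyme that opens the haem ring. It was at 11.1, 52.1 and 68.6 CPM in T1, T2 and T3 and at 8.24, 80.3 and 5.49 CPM in vehicle libraries C1, C2 and C4. Its highest and lowest libraries, C2 and C4, both came from vehicle and were 14.6-fold apart. The means were 43.9 ± 29.6 CPM in TEPP-46 libraries and 31.4 ± 42.4 CPM in vehicle libraries (SD, n = 3 each). The log2 fold change was 0.45, with a 95% interval of -2.53 to 3.44 (edgeR adjusted p = 0.997). Across the 6 libraries the SD of its log2 CPM was 1.71, larger than that of 99.5% of tested genes, whose median was 0.30.

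Hmox2 (chromosome 16, 4726361 to 4766742) encodes haem oxygenase 2, the constitutive form, which is strong in neurons. It was at 201, 135 and 141 CPM in T1, T2 and T3 and at 137, 140 and 183 CPM in vehicle libraries C1, C2 and C4. T1 and C4 were the 2 high libraries, and neither was high for Hmox1. Its log2 fold change was 0.038, with a 95% interval of -0.37 to 0.45.

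The balance of both oxygenases followed Hmox1. Of the counts of Hmox1 and Hmox2 together, Hmox1 took 5.25% in T1 (exact binomial 95% interval 4.09 to 6.62), 27.9% in T2 and 32.7% in T3. In vehicle it took 5.66% in C1, 36.5% in C2 (33.9 to 39.3) and 2.91% in C4. The group means were 21.9 ± 14.7% in TEPP-46 libraries and 15.03 ± 18.7% in vehicle libraries (SD, n = 3 each), which did not differ beyond the spread between libraries (exact two-sided permutation p = 0.9, the smallest possible being 0.1). The difference of 6.91 percentage points was 17.7 without C2, 15.2 without T1 and 0.845 without C4. The binomial intervals cover counting error only.

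Biliverdin reductases follow haem oxygenase. Blvra (chromosome 2, 127070665 to 127097084) encodes the main enzyme, which makes bilirubin from biliverdin. It was at 26.7, 20.1 and 27.5 CPM in T1, T2 and T3 and at 23.6, 33.3 and 35.6 CPM in vehicle libraries C1, C2 and C4. C1 lay inside the range of the TEPP-46 libraries and the other 2 vehicle libraries above it. Its log2 fold change of -0.33 (95% interval -0.81 to 0.15) had the smallest p of the 10 members, unadjusted p = 0.152 and adjusted p = 0.941 in edgeR. With single libraries left out it ran from -0.49 to -0.20. Blvrb (chromosome 7, 27447978 to 27466144), which encodes the second enzyme, also known as a flavin reductase, was at 15.8, 14.9 and 16.8 CPM in TEPP-46 libraries and at 9.55, 23.3 and 18.5 CPM in vehicle libraries C1, C2 and C4. The TEPP-46 libraries sat between the vehicle libraries, with an SD of 0.916 CPM in TEPP-46 and 6.99 CPM in vehicle (n = 3 each).

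Slc48a1 (chromosome 15, 97778520 to 97792692), the haem transporter HRG1 that brings haem out of the lysosome, was the steadiest member. Its level was 168, 150 and 145 CPM in T1, T2 and T3 and 145, 159 and 154 CPM in vehicle libraries C1, C2 and C4. The SD of its log2 CPM over 6 libraries was 0.081, larger than that of 2.29% of tested genes. The log2 fold change was 0.0037 with a 95% interval of -0.26 to 0.27.

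Ferritin messenger RNAs were the most abundant members per length. Fth1 (chromosome 19, 9980598 to 9985098) encodes the heavy chain, which oxidises iron on its way into the shell. It was at 3452, 3212 and 3951 CPM in T1, T2 and T3 and at 3272, 3951 and 2908 CPM in vehicle libraries C1, C2 and C4. The highest and lowest of its libraries were 1.36-fold apart. Its log2 fold change was 0.053 with a 95% interval of -0.26 to 0.37.

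Ftl1 (chromosome 7, 45457944 to 45459884) encodes the light chain, which helps the iron core to form. It was at 1045, 1800 and 2038 CPM in T1, T2 and T3 and at 797, 2872 and 809 CPM in vehicle libraries C1, C2 and C4. Here too 1 vehicle library was the highest and the other 2 the lowest, 3.60-fold apart. The SD of its log2 CPM was 0.77, larger than that of 92.7% of tested genes. The log2 fold change was 0.11 with a 95% interval of -1.30 to 1.51 (edgeR adjusted p = 0.997).

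Ftl1 counts are uncertain because of a near copy. The transcript Ftl1-ps1-202 matched Ftl1-201 over 96.6% of its 938 bases, and the gene Ftl1-ps1 held counts of its own in each library. They came to 18.0, 18.7 and 18.2% of the Ftl1 counts in T1, T2 and T3 and to 18.1, 18.4 and 18.1% in C1, C2 and C4. How reads were divided between both genes is not given in the sources used here. Adding them to Ftl1, a choice made after seeing the data, left the log2 fold change at 0.11.

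Fth1 varied less than Ftl1, and the make-up of ferritin messenger RNA differed between libraries. Fth1 took 76.8, 64.1 and 66.0% of the counts of both genes in T1, T2 and T3 and 80.4, 57.9 and 78.2% in C1, C2 and C4. C2 had the lowest share and C1 the highest. The means were 68.9 ± 6.84% in TEPP-46 libraries and 72.2 ± 12.4% in vehicle libraries (SD, n = 3 each), with a two-sided p of 0.8 by exact permutation.

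Iron leaves cells through ferroportin, encoded by Slc40a1 (chromosome 1, 45908068 to 45926523). It had few counts, 40, 42 and 42 in T1, T2 and T3 and 31, 58 and 33 in C1, C2 and C4. At this depth its log2 fold change of -0.032 had a 95% interval of -0.68 to 0.62. C2 was again the highest library, at 10.2 CPM, and the other 5 lay between 5.81 and 7.91 CPM.

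Tfrc (chromosome 16, 32608920 to 32632794), the transferrin receptor that brings iron into cells, ran the other way. It was at 28.9, 21.5 and 23.7 CPM in T1, T2 and T3 and at 29.4, 16.7 and 28.4 CPM in vehicle libraries C1, C2 and C4. C2 was its lowest library, and T1, C1 and C4, the 3 libraries lowest in Hmox1, were its 3 highest. Its log2 fold change was -0.015 with a 95% interval of -0.55 to 0.52.

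Trf (chromosome 9, 103204001 to 103230444), the iron carrier transferrin, was at 237, 232 and 327 CPM in T1, T2 and T3 and at 210, 323 and 67.9 CPM in vehicle libraries C1, C2 and C4. C4 stood below the other libraries, and the highest was 4.81-fold above it. The means were 265 ± 53.4 CPM in TEPP-46 libraries and 200 ± 128 CPM in vehicle libraries (SD, n = 3 each), and the log2 fold change was 0.39 with a 95% interval of -0.82 to 1.59 (edgeR adjusted p = 0.993). The log2 ratio of Trf to Tfrc counts was 3.42 ± 0.37 in TEPP-46 libraries and 2.79 ± 1.51 in vehicle libraries (SD, n = 3 each), with a two-sided p of 0.6 by exact permutation, and ran between 1.26 in C4 and 4.28 in C2, both vehicle libraries.

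Per kilobase of the leading annotated transcript, Fth1 was highest at 3809 ± 406 CPM per kilobase in TEPP-46 libraries and 3635 ± 570 in vehicle libraries, followed by Ftl1 at 1681 ± 536 with TEPP-46 and 1542 ± 1234 with vehicle (SD, n = 3 each). Trf, Hmox2 and Slc48a1 came next, at 103 ± 20.8, 91.9 ± 21.02 and 60.9 ± 4.68 CPM per kilobase in TEPP-46, and Trf did not differ from Hmox2 beyond their spread. In vehicle libraries Trf was at 77.9 ± 49.7 and Hmox2 at 88.7 ± 14.9 CPM per kilobase (SD, n = 3 each). Hmox1, Blvra and Blvrb, at 28.0 ± 18.9, 21.4 ± 3.51 and 15.4 ± 0.891 CPM per kilobase in TEPP-46, could not be ordered beyond the spread of Hmox1. Tfrc at 5.05 ± 0.772 and Slc40a1 at 2.18 ± 0.192 CPM per kilobase in TEPP-46 were the lowest. The place of Tfrc rests on the division by length. In CPM it was at 24.7 ± 3.77 in TEPP-46 libraries, beside Blvra at 24.8 ± 4.07 and Blvrb at 15.8 ± 0.916 (SD, n = 3 each). Whether counts grow with transcript length in these nanopore libraries was not tested.

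Leaving out single libraries moved the members with the largest spread most. Without vehicle library C2, Hmox1 had a log2 fold change of 2.67 (SE 0.73, unadjusted p = 0.00713, edgeR adjusted p = 0.242) and Ftl1 one of 1.01 (SE 0.25, unadjusted p = 0.00261, edgeR adjusted p = 0.172). These were the 2 members of 10 at an unadjusted p under 0.05 in that fit, against 10.2% of all genes tested in it, and neither was called. For both genes C2 was the highest library and C1 and C4 were the lowest. Leaving out C2 therefore set the groups apart in advance, and these p-values are no support for a difference. Trf was at 0.93 without C2 and at -0.023 without C4. For Hmox1 the log2 fold change was -0.042 without C4 and -0.012 without T3, so that its sign rested on single libraries.

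**Figure D2:**
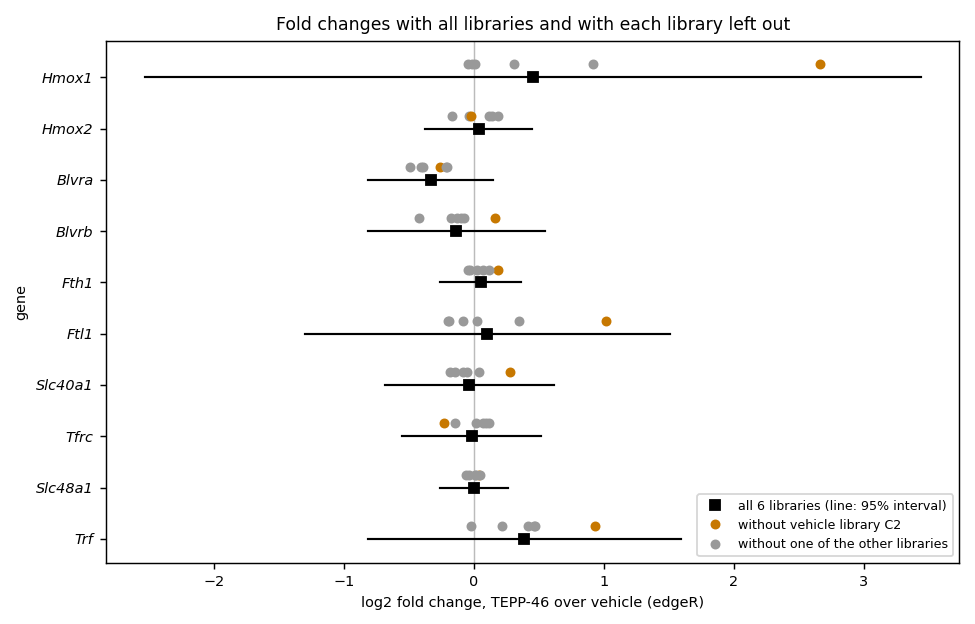
Log2 fold change of each member, TEPP-46 over vehicle, with all 6 libraries (black square, line for the 95% interval) and with each library left out in turn (circles, orange without vehicle library C2, grey without one of the others). Intervals of all 10 genes span 0, and the values without C2 stand apart for Hmox1 at 2.67, Ftl1 at 1.01 and Trf at 0.93.

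Genes with a profile like that of Hmox1 were named by the root-mean-square difference of centred log2 CPM over the 6 libraries, among 8770 tested genes with a mean of at least 10 CPM. The 5 nearest were Plin2 (0.22), Cd36 (0.32), Lgals3 (0.38), Spp1 (0.41) and Apoc2 (0.43). Plin2 coats lipid droplets and Cd36 is a scavenger receptor of phagocytes, while Lgals3 and Spp1, the galectin-3 and osteopontin genes, are marks of activated microglia and macrophages. Spp1 was at 362, 1499 and 2220 CPM in T1, T2 and T3 and at 176, 3734 and 108 CPM in vehicle libraries C1, C2 and C4.

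For Ftl1 the nearest profile was Ftl1-ps1 (0.019), followed by Ctsz (0.12), a lysosomal protease, Hmgb2 (0.13), Anxa2 (0.14) and Grn (0.14), the progranulin gene. Nearest to Trf were Sparc (0.15), the new locus ONT.11506 (0.15), Litaf (0.18), Bcas1 (0.18), a gene of maturing oligodendrocytes, and Cox6b2 (0.20). These values describe the 6 libraries and carry no test.

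The libraries stood in the same order for Hmox1 as for the summed markers of activated microglia and macrophages, of homeostatic microglia and of red blood cells: C2 was highest, then T3, T2, T1 and C1, with C4 lowest. The red blood cell list summed to 560, 645 and 748 CPM in T1, T2 and T3 and to 458, 1053 and 319 CPM in vehicle libraries C1, C2 and C4. It had 7 markers with a row in the files, of which 5 passed the filter, among them 4 haemoglobin genes, and Slc4a1, the anion exchanger of the red cell membrane, was at 0 in all libraries. The summed activated microglia and macrophage markers, 17 of 18 tested, were at 16933 CPM in T2 and 11120 CPM in C1. Apoe, the larger part of that sum, stood higher in C1, at 8557 CPM, than in T1, at 8070 CPM. The homeostatic microglia markers, 10 of 10 tested, summed to between 563 and 739 CPM in TEPP-46 libraries and to between 361 and 1044 CPM in vehicle libraries. Of the border and infiltrating macrophage markers 5 of 8 were tested, and they summed to between 13.8 and 43.2 CPM in TEPP-46 and between 15.5 and 68.8 CPM in vehicle. The endothelium markers, 10 of 10 tested, ran C2, T3, T2, T1, C4 and C1 from highest to lowest, the order of Ftl1 and Slc40a1. They summed to between 321 and 328 CPM in TEPP-46 libraries and between 255 and 334 CPM in vehicle libraries. The endothelium sums lay close together, at 334, 328, 326 and 321 CPM in C2, T3, T2 and T1, so that their order rests on small differences. Single markers did not all keep the order of their list. The part of cell content in the level of Hmox1 or Ftl1 was not tested.

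The low level of Trf in C4 went with a low level of myelin transcripts there. Mbp, the myelin basic protein gene, was between 8850 and 10690 CPM in TEPP-46 libraries and at 9304, 9121 and 3747 CPM in vehicle libraries C1, C2 and C4. All 14 oligodendrocyte markers were tested. Choroid plexus, which also makes transferrin, was uneven too: its list of 12, of which 10 were tested, summed to between 2262 and 4014 CPM in TEPP-46 and to 5011, 212 and 184 CPM in vehicle libraries C1, C2 and C4. Ttr gave the larger part of this sum in the TEPP-46 libraries and in C1. In C2 and C4 nearly all of it was Enpp2, at 204 and 166 CPM. Trf was at 323 CPM in C2, where the choroid plexus gene Ttr was at 0.526 CPM and the oligodendrocyte sum at 13995 CPM. Mbp gave the larger part of the oligodendrocyte sum in each library. That sum was highest in T1, at 15891 CPM, where Trf was at 237 CPM. Single markers of the list differed: T1 was the highest library for Mobp but not for Car2, which was higher in T3. The part of oligodendrocytes or choroid plexus in the Trf level was not tested.

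**Figure D3:**
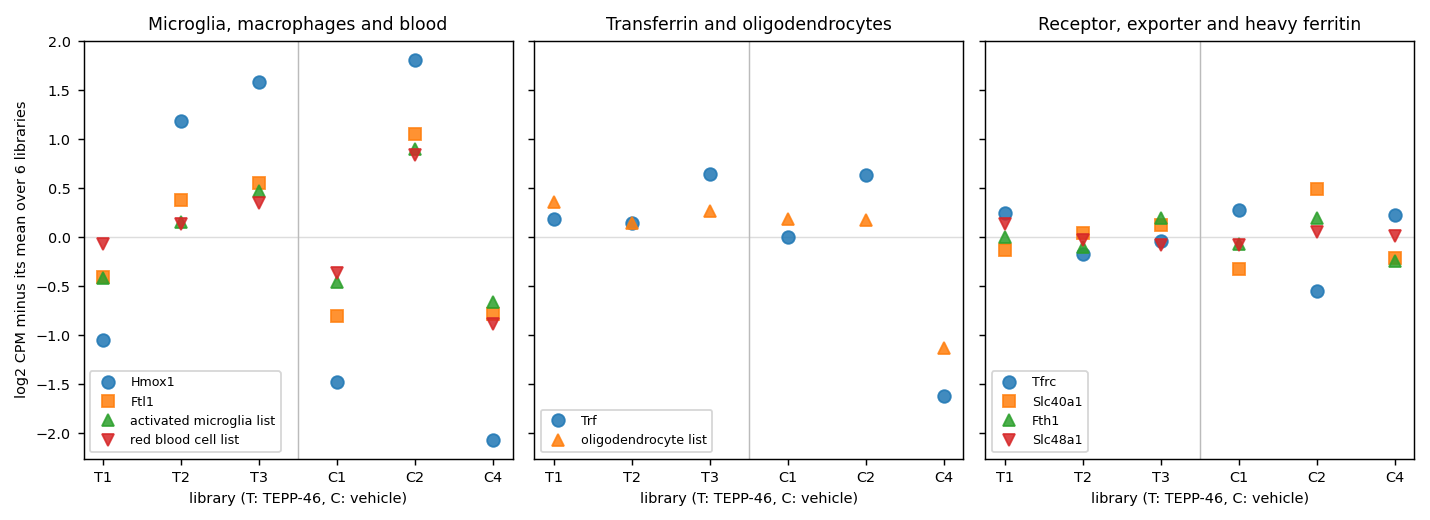
Log2 CPM minus its mean over the 6 libraries, in TEPP-46 libraries T1, T2 and T3 (left of the line in each panel) and vehicle libraries C1, C2 and C4 (right of it), for members and for the summed levels of marker lists. Hmox1 and Ftl1 are highest in C2 and share their high and low libraries with the activated microglia and red blood cell lists, Trf is lowest in C4 with the oligodendrocyte list, and Tfrc is lowest in C2.

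At isoform level the members had 43 rows, 39 with at least 1 count, and 23 passed the filter. Of these, edgeR called 0 at an adjusted p under 0.05, where 0% of all 33854 tested isoforms were called. At an unadjusted p under 0.05 the count was 0 of 23, against 5.77% of all tested isoforms, and DESeq2 called 0, against 0.613% of the isoforms it adjusted. The smallest unadjusted p, 0.0952, belonged to a new Blvra isoform, ONT.6852.2, with a log2 fold change of -0.62 (SE 0.34) and 22, 14 and 20 counts in T1, T2 and T3 and 17, 28 and 36 in C1, C2 and C4. Isoform usage was tested for 6 members by edgeR's diffSpliceDGE, and none was called, against 0.0131% of all 7639 genes, with a smallest unadjusted p of 0.505.

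Hmox1, Fth1 and Slc40a1 each had counts in a single annotated isoform. Hmox2 was spread over 9, of which 7 were tested. Hmox2-201 took 44.5 ± 2.42% of its counts in TEPP-46 libraries and 44.2 ± 0.628% in vehicle libraries, and Hmox2-202 took 12.7 ± 0.567% with TEPP-46 and 13.4 ± 0.970% with vehicle (SD, n = 3 each). Hmox2-201, Hmox2-202 and Hmox2-203 have coding parts of the same length, 948 bases, and differ in the length of their UTRs. A further 3 isoforms were unannotated, and their counts summed to 27.1 to 29.4% of Hmox2 across libraries.

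Blvra-201 took 77.5 ± 3.48% of the Blvra counts in TEPP-46 libraries and 74.1 ± 6.10% in vehicle libraries, with 67.0% in C4 and 73.5% or more in the other libraries. Blvrb-201 took 81.2 ± 3.33% in TEPP-46 libraries and 80.7 ± 5.91% in vehicle libraries, and Blvrb-203 10.4 ± 3.21% with TEPP-46 and 10.6 ± 1.42% with vehicle (SD, n = 3 each). Slc48a1-201 took 81.6 ± 2.87% in TEPP-46 libraries and 84.8 ± 1.91% in vehicle libraries, and the new isoform ONT.4233.3 most of the rest, 17.8 ± 3.05% with TEPP-46 against 14.8 ± 1.77% with vehicle. The 3 libraries of each group overlapped in all of these shares.

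Tfrc-201, the form whose 3′ UTR of 2458 bases holds the 4 elements shown above, took 93.5 ± 3.69% of the Tfrc counts in TEPP-46 libraries and 93.3 ± 3.03% in vehicle libraries (SD, n = 3 each). Tfrc-202, with a 3′ UTR of 235 bases, took 6.23 ± 3.21% in TEPP-46 libraries and 6.28 ± 2.30% in vehicle libraries. Trf-201 took 92.1 ± 1.502% of the Trf counts in TEPP-46 libraries and 92.7 ± 0.605% in vehicle libraries, and Trf-203, with a coding part of the same 2094 bases, 6.98 ± 0.780% with TEPP-46 and 6.46 ± 0.453% with vehicle. For Ftl1, Ftl1-201 and Ftl1-202 took 48.6 ± 0.338% and 47.9 ± 0.360% in TEPP-46, and 48.5 ± 0.580% and 47.5 ± 0.952% in vehicle. These 2 isoforms are alike over 97.8% of the shorter one, so that their near-equal counts are uncertain as separate measures.

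**Figure D4:**
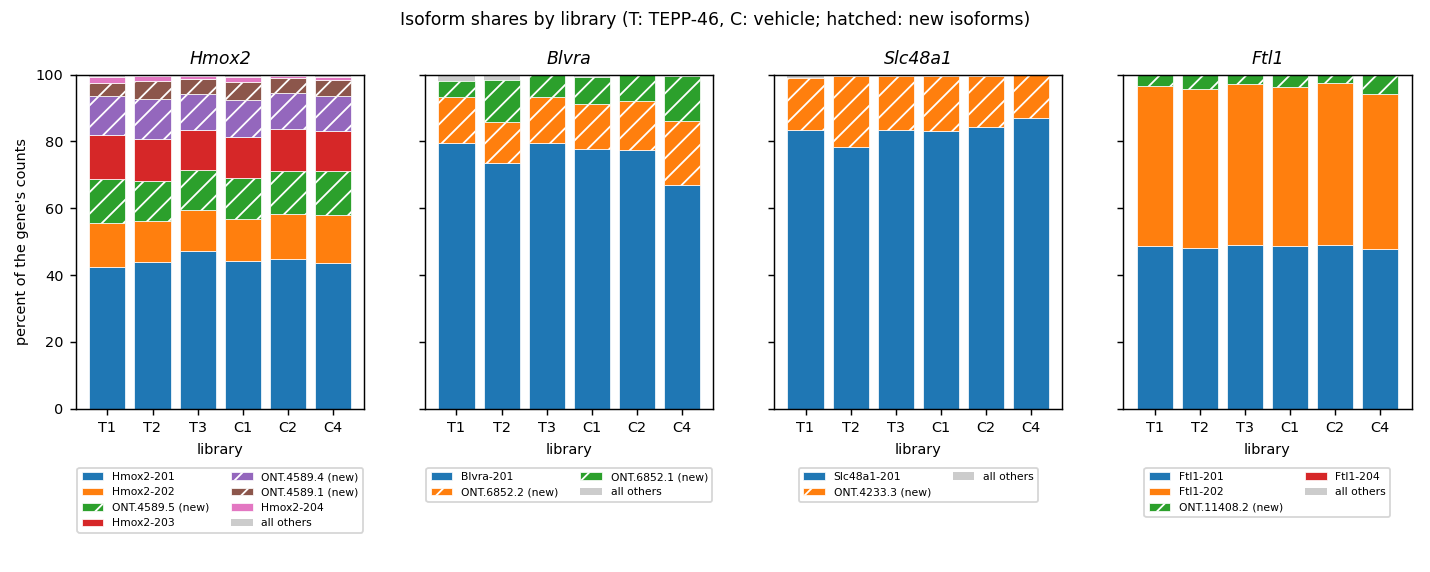
Share of each isoform in the counts of Hmox2, Blvra, Slc48a1 and Ftl1, in percent, for TEPP-46 libraries (T1, T2, T3) and vehicle libraries (C1, C2, C4), with new isoforms hatched. The groups overlap in the shares of all annotated isoforms named in the text, with Ftl1-201 and Ftl1-202 near 48% each and Blvra-201 lowest in C4 at 67.0%.

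The wider iron and haem pathway was described from 6 lists with 70 genes in the table, of which 55 passed the filter. None of the 55 was called by edgeR or by DESeq2, against 0% and 0.588% of all genes. At an unadjusted p under 0.05, the count was 6 of 55, 4 higher and 2 lower in TEPP-46, against 5.93% of all tested genes. The groups lay apart for 10 of 55, against 11.4% of all tested genes. Nothing particular to the pathway was tested. The median log2 fold change was -0.0088, with 25 above 0 and 30 below. With all 6 libraries, no gene named in the next paragraphs passed in edgeR, and adjusted p was at least 0.515.

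Among genes of haem uptake and export, 6 of 10 were tested. Lrp1, which takes up haem bound to hemopexin, had a log2 fold change of 0.56 (SE 0.14, unadjusted p = 0.00353) and 48.8, 54.8 and 51.6 CPM in T1, T2 and T3, against 32.96, 37.7 and 33.5 CPM in vehicle libraries C1, C2 and C4. Unlike Hmox1, its 2 groups lay apart, with C2 close to C1 and C4. Pgrmc1, a haem-binding membrane protein, was at 179 ± 14.97 CPM in TEPP-46 libraries and 196 ± 6.32 CPM in vehicle libraries (SD, n = 3 each). Cd163, the receptor for haemoglobin bound to haptoglobin, had between 2 and 15 counts in a library and was not tested, and neither were Hp and Hpx, which encode the plasma carriers haptoglobin and hemopexin.

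For haem synthesis all 12 genes were tested, 4 with a log2 fold change above 0. Alas1, the first enzyme of the path, was at 72.5 ± 6.30 CPM in TEPP-46 libraries and 65.2 ± 6.01 CPM in vehicle libraries. Alad, which encodes the second enzyme of the path, was at 25.3 ± 4.73 CPM in TEPP-46 libraries and at 31.0 ± 2.71 CPM in vehicle libraries (SD, n = 3 each), with an unadjusted p of 0.135 in edgeR.

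In the list of iron uptake and reduction, 10 of 15 were tested. Tfr2, the second transferrin receptor, was at 15.1, 11.4 and 7.54 CPM in T1, T2 and T3 and at 17.8, 16.7 and 19.9 CPM in vehicle libraries C1, C2 and C4, a log2 fold change of -0.68 (SE 0.26, unadjusted p = 0.0279). Its groups lay apart, where those of Tfrc overlapped. Slc11a2, the iron transporter DMT1, was at 24.3 ± 5.34 CPM in TEPP-46 libraries and 25.2 ± 6.02 CPM in vehicle libraries. Slc39a8, a metal importer, was at 10.4 ± 3.57 CPM in TEPP-46 libraries against 7.31 ± 1.59 CPM in vehicle, and Slc22a17, a receptor for lipocalin-2, at 404 ± 72.3 CPM in TEPP-46 libraries against 495 ± 132 CPM in vehicle (SD, n = 3 each).

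Of genes of iron storage, chaperones and iron-sulphur clusters, 9 of 10 were tested, and Ftmt, the mitochondrial ferritin gene, was at 0 in all libraries. Glrx5, a glutaredoxin of iron-sulphur cluster assembly, was at 7.30, 7.47 and 9.23 CPM in T1, T2 and T3 and at 18.9, 7.54 and 34.8 CPM in vehicle libraries C1, C2 and C4 (log2 fold change -1.36, SE 0.47, unadjusted p = 0.0194). C2 lay inside the TEPP-46 range. The log2 fold change was -0.73 without C4 (unadjusted p = 0.0827 in edgeR) and ran from -1.75 to -0.73 over the fits with 1 library left out, with adjusted p between 0.0556 and 1.000. Iscu, the cluster scaffold, was at 16.1, 84.5 and 115 CPM in T1, T2 and T3 and at 128, 119 and 124 CPM in vehicle libraries C1, C2 and C4, so that T1 stood far below the rest and the groups lay apart (log2 fold change -0.80, SE 0.61, unadjusted p = 0.237 in edgeR). Iscu was at -0.32 without T1 and at -1.31 without T3. Pcbp2, which hands iron to ferritin, was at 201 ± 43.3 CPM in TEPP-46 libraries and 184 ± 33.5 CPM in vehicle libraries (SD, n = 3 each).

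Ferroxidases help iron to leave through ferroportin. Of 6 genes listed with iron export 3 were tested, and Hamp, the hepcidin gene, was at 0 in all libraries. Cp, the ceruloplasmin gene, averaged 14.2 ± 5.77 CPM in TEPP-46 libraries and 11.4 ± 5.25 CPM in vehicle libraries, and its relative Heph at 2.40 ± 1.03 CPM with TEPP-46 and 1.77 ± 0.714 CPM with vehicle. App, whose protein has been tied to ferroportin at the membrane, was at 758 ± 118 CPM in TEPP-46 libraries and 874 ± 199 CPM in vehicle libraries (SD, n = 3 each).

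Of the regulators of iron and haem, 15 of 17 in the table were tested. An unadjusted p under 0.05 was found for 3 of the 15, against 5.93% of all tested genes, and the groups lay apart for 4 of the 15, against 11.4%. Fbxl5, the iron-sensing part of the ligase that removes iron regulatory protein 2, was at 138, 136 and 155 CPM in T1, T2 and T3 and at 115, 108 and 121 CPM in vehicle libraries C1, C2 and C4 (log2 fold change 0.30, SE 0.12, unadjusted p = 0.0287). Smad4, through which bone morphogenetic proteins drive hepcidin in liver, was at 9.49 ± 0.278 CPM in TEPP-46 libraries and 5.34 ± 1.54 CPM in vehicle libraries. Hif1a, the oxygen-regulated transcription factor gene, averaged 76.6 ± 5.44 CPM in TEPP-46 libraries and 61.2 ± 5.00 CPM in vehicle libraries (SD, n = 3 each). For Smad4 and Hif1a the groups lay apart as well, with log2 fold changes of 0.82 and 0.31 and unadjusted p of 0.0129 and 0.0451 in edgeR. The summed level of this list lay between 449 and 502 CPM in TEPP-46 libraries and between 396 and 407 CPM in vehicle libraries. It was the 1 pathway list of 6 whose sums did not overlap between the groups, a description chosen after the values were seen. Fbxl5 and Hif1a, named above, were the most abundant genes of the list, so the sum is not a measure apart from them. The summed astrocyte markers did not overlap either, at 4653 to 5040 CPM in TEPP-46 libraries and 4274 to 4422 CPM in vehicle libraries, and their part in the result was not tested.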

How the data were processed

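The authors deposited raw counts per gene and per isoform for 6 libraries, per the file headers, from nanopore cDNA-PCR libraries per the labels' protocols. DESeq 1.10.1 and build GRCm38 are named, without a role, in the submitters' processing notes. For the aligner, the counter and any use of strand, the name is not given in the sources used here. Column letters tie libraries to groups, and 12 other columns of values per library were not used.

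CPM was computed from the counts. Genes and isoforms were fitted across the whole tables with edgeR 4.0.16 in R 4.3.3 (filterByExpr, TMM, robust quasi-likelihood test, group as single term, Benjamini-Hochberg adjustment, calls under 0.05), with DESeq2 1.42.0 as an alternative. Standard errors and 95% intervals came from each fold change and its quasi-likelihood F value. The fits were tested on simulated counts with a single spread common to all genes. That setting does not cover members as variable as Hmox1, Ftl1 and Trf. The authors' p-values and log2 fold changes are named where used. Known gene identifiers matched GENCODE M21 in 99.9% of cases. Text names all 10 members, the 2 most abundant and the 2 smallest unadjusted p of each pathway list, the 2 leading isoforms of a member, the 2 most abundant tested genes of a marker list, and the 5 nearest profiles of the 3 most variable members. Items outside that rule, such as Cd163, Ftmt or Hmox2-203, were chosen after their values were seen. Members and lists were chosen with earlier results of these data known. A pathway gene that the rule names is not reported here.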

Additional observations from a re-analysis of the deposited data

How the results depend on the processing

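Calls did not change: 0 members, 0 of their isoforms and 0 pathway genes were called under RLE size factors, total counts, no low-count filter, DESeq2 and each library left out, and 0 members by isoform usage under RLE, no filter and each library left out. Directions did. With 1 library left out, log2 fold changes ran from -0.042 to 2.67 for Hmox1, -0.16 to 0.19 for Hmox2, -0.42 to 0.17 for Blvrb, -0.043 to 0.19 for Fth1, -0.19 to 1.01 for Ftl1, -0.18 to 0.28 for Slc40a1, -0.23 to 0.12 for Tfrc, -0.058 to 0.049 for Slc48a1 and -0.023 to 0.93 for Trf. For pathway genes they ran from -0.24 to 0.15 for Slc11a2, -0.026 to 0.28 for Pcbp2 and -0.0092 to 0.67 for Cp. For isoforms they ran from -0.41 to 0.19 for Blvrb-201, -0.52 to 0.0066 for Blvrb-203, -0.24 to 1.01 for Ftl1-201, -0.24 to 1.02 for Ftl1-202, -0.13 to 0.16 for Hmox2-201, -0.31 to 0.15 for Hmox2-202, -0.23 to 0.25 for Slc40a1-201, -0.23 to 0.11 for Tfrc-201 and -0.057 to 0.89 for Trf-201. The group difference of the Hmox1 share ran from 0.845 to 17.7 percentage points, that of the Fth1 share from -10.4 to 0.871 percentage points and that of the log2 Trf to Tfrc ratio from -0.14 to 1.37. Near 0, the sign of Slc48a1 turned with RLE (-0.0098), no filter (-0.015) and DESeq2 (-0.011), of Hmox2-201 with no filter (-0.0042) and of Tfrc-201 with total counts (0.011). The cause was not tested. No paired analysis was possible because the column numbers C1, C2 and C4 could not be tied to the numbered samples, so the fit with a replicate block was not run. With 3 libraries a group the permutation tests cannot go below 0.1, and the low counts of Slc40a1 limit what could be seen there.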
